A study of Mus musculus with 6 samples.

Results

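The genes described here are the 4 nuclear factor I (NFI) genes, *Nfia*, *Nfib*, *Nfic* and *Nfix*, and *Zbtb20*, 5 of the 52390 genes in the deposited count table and 5 of the 21844 with enough counts to be tested. They were found by their symbols. *Nfia* and *Zbtb20* were chosen by measured values, because the study names them as lower in this same comparison, so their difference between the groups is given as a description with no test. The other 3 genes were taken in because they belong to the NFI family. RNA came from 3 mice overexpressing *AP1AR-DT* (*AP1AR-DT* OE) and 3 control mice, all wild type C57BL/6 males given a recombinant adeno-associated virus in the medial prefrontal cortex (mPFC) at 8 weeks of age. The OE virus carried *AP1AR-DT*, a human long non-coding RNA without a mouse counterpart, behind the human synapsin I promoter, a promoter of neurons, and control mice received an empty vector. The labels call the tissue brain, while the study's text names both the mPFC and cortical tissue. A library pools the RNA of all cell types of a tissue piece and both transduced and other neurons, so fewer cells of a type and less RNA per cell cannot be told apart. The table lists no count for *AP1AR-DT*, and no other gene was deleted or knocked down, so the labels have no check of their own in these data.

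NFI proteins are transcription factors that bind a palindrome made of the half-sites TTGGC and GCCAA, or one side of it, as dimers of any combination of the family's members, and can activate or repress their targets. In the developing brain, *Nfia*, *Nfib* and *Nfix* are known for starting gliogenesis and for driving the maturation of radial glia and astrocytes, and in the adult brain they remain expressed in astrocytes and in many neurons. *Nfic* is best known for its role in tooth root development. *Zbtb20* encodes a transcriptional repressor with a BTB domain, used for dimerization, and zinc fingers, used for DNA binding. It is known for specifying hippocampal pyramidal neurons and for promoting astrocyte differentiation from cortical progenitors.

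In GENCODE vM21 on GRCm38, *Nfia* (ENSMUSG00000028565) spans chr4:97772734-98118874 on the plus strand and *Nfib* (ENSMUSG00000008575) chr4:82290173-82705750 on the minus strand. *Nfic* (ENSMUSG00000055053) spans chr10:81396186-81455635 and *Nfix* (ENSMUSG00000001911) chr8:84699876-84800344, both on the minus strand. *Zbtb20* (ENSMUSG00000022708) spans chr16:42875881-43642602 on the plus strand, and with 766722 bases and 21 annotated transcripts it is the longest of the 5 genes. All of the longest transcripts consist mainly of 3′ UTR, which makes up 80.2% of that of *Nfia*, 72.7% of that of *Nfib*, 78.1% of that of *Nfic*, 72.2% of that of *Nfix* and 88.7% of that of *Zbtb20*. No stretch of 100 bases of their longest transcripts recurs in a transcript of another gene, so reads could be told apart within the family at this length.

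RefSeq promoters (GRCm38.p6, 250 bases before to 50 after a start site) were found for 4 of the 5 genes, 7 promoters in all, 4 of them of *Nfix*. *Nfib* was not matched. The promoters below are those of the 2 genes whose groups did not overlap in expression, *Nfia* (chr4:97581693-97581992, plus strand) and *Zbtb20* (chr16:43247034-43247333, plus strand), and that of *Nfic* (chr10:81427124-81427423, minus strand) as the GC-rich contrast. Capitals mark the first 50 transcribed bases.
Nfia: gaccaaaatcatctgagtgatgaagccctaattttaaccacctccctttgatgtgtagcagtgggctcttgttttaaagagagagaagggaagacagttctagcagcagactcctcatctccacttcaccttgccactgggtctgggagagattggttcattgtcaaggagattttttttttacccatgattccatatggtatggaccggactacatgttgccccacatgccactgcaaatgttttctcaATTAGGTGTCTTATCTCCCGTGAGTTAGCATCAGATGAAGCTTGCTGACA
Zbtb20: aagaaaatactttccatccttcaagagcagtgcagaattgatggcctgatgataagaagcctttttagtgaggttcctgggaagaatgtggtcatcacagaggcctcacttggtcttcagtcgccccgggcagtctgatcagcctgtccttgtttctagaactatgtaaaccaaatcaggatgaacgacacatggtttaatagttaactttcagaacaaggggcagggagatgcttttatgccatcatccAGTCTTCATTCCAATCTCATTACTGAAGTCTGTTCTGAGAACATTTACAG
Nfic: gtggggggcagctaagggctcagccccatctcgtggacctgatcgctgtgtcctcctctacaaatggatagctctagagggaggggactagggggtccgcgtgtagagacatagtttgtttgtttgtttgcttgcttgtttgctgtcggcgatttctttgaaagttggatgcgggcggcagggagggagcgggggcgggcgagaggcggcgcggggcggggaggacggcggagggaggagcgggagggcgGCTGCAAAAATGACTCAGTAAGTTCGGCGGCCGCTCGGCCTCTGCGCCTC
The RefSeq start sites of *Zbtb20* and *Nfic* are also transcript starts in GENCODE, while that of *Nfia* lies 190791 bases upstream of the nearest *Nfia* start in GENCODE vM21. GC content was 44.7% in the *Nfia* promoter, 43.3% in that of *Zbtb20* and 63.0% in that of *Nfic*, against a median of 52.7% over 32851 promoters. The NFI half-site, TTGGC or its reverse complement GCCAA, was found in 3 of the 7 promoters, all of *Nfix*, and in none of the 3 shown. Over all promoters 46.7% hold it. The core of the motif of NRF1, the transcription factor the study's mechanism involves, was searched as GCGCANGCG and its reverse complement CGCNTGCGC. It was found in none of the 7 promoters and in 6.25% of all promoters. The search covers these letters in this window only.

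Library totals ranged from 42061721 to 54668294 counts, and the 5 genes had between 1912 counts (*Nfia*, OE A) and 12377 counts (*Nfix*, control 3) in a library. OE columns carry no mouse number, and these libraries are called OE A, B and C in the order of the columns. Levels are given as normalized CPM, counts scaled by the TMM-adjusted size of the library. Astrocyte markers (15 genes) summed to between 6252 and 7429. Excitatory neuron markers (10 genes) summed to 1164 to 2147 in controls and 1704 to 2955 in OE libraries. *Camk2a* made up most of these sums, with 1075 of 1164 in control 2 and 1529 of 1704 in OE C. Some of the other markers were near absent in some libraries. As the mean log2 deviation over the 10 genes, the libraries ran from −1.93 in control 2 to 1.49 in OE B. *Slc17a7*, the vesicular glutamate transporter of cortical neurons, had 28.2, 3.86 and 233 normalized CPM in controls 1, 2 and 3 and 231, 463 and 87.2 in OE A, B and C, and *Neurod6* had 0.0803 in control 2 and 0.572 in OE C against 4.30 to 23.0 elsewhere. Striatal markers (10 genes) summed to 1444, 399 and 540 in the controls and 2470, 913 and 993 in the OE libraries, with 9 of 10 Log2FC above 0 and a median of 0.90, and overlapping groups in each of the 10 genes. Libraries of both groups thus differed in their brain region markers. Control 3 stood apart in several lists. Its 10 choroid plexus markers summed to 4065 normalized CPM against 59.8 to 82.6 in the other 5 libraries, its 10 oligodendrocyte markers to 11161 against 5282 to 6752, its 10 thalamic markers to 1579 against 471 to 786, and its 10 inhibitory neuron markers to 1123 against 1890 to 2339. Control 2 had 649 normalized CPM of hypothalamic markers against 28.7 to 90.1 elsewhere. Mitochondrial genes took 7.20% to 9.86% of the counts in control mice and 5.75% to 6.80% in OE mice. Because of these values, results are also given without control 3, and with each other mouse left out where that matters.

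*Zbtb20* had the largest difference between the groups of the 5 genes. Its level was 136, 118 and 162 normalized CPM in controls 1, 2 and 3, and 92.9, 73.2 and 108.7 in OE A, B and C. Each OE library was below each control library, with the lowest level in OE B and the highest in control 3. The controls averaged 139 ± 21.9 and the OE mice 91.6 ± 17.8 (SD, n = 3 each), which is 33.9% lower and a Log2FC of −0.60 (SE 0.174).

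*Nfia*, the NFI gene best known for initiating astrocyte formation, had 47.7, 48.3 and 57.3 normalized CPM in controls 1, 2 and 3. In OE A, B and C it had 36.0, 44.0 and 39.4. The groups again did not overlap, and the gap between OE B and control 1 was the narrowest. The mean level was 51.1 ± 5.36 in control mice and 39.8 ± 3.98 in OE mice (SD, n = 3 each), 22.1% lower, with a Log2FC of −0.36 (SE 0.121).

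*Nfib*, whose product acts with that of *Nfia* in forebrain gliogenesis and in the formation of the corpus callosum, had 49.9, 54.0 and 80.1 normalized CPM in the controls. OE A, B and C had 45.2, 53.0 and 54.7. The control mean of 61.4 ± 16.4 (SD, n = 3) rests on control 3, since controls 1 and 2 lie within the range of the OE libraries, whose mean was 51.0 ± 5.08 (SD, n = 3). The Log2FC was −0.27 (SE 0.191), and it did not pass edgeR's quasi-likelihood test (P = 0.203, adjusted P = 0.521 over all genes, exact permutation P = 0.5, where 3 mice against 3 cannot give less than 0.1).

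*Nfic* had 88.1, 108 and 135 normalized CPM in the controls and 99.98, 112 and 101 in the OE libraries. The controls spanned the whole range of the OE mice. The means were 110 ± 23.4 and 104 ± 6.43 (SD, n = 3 each), with a Log2FC of −0.08 (SE 0.156; edgeR P = 0.625, adjusted P = 0.832, exact permutation P = 0.8).

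*Nfix*, the family member that restrains stem cell proliferation in the postnatal hippocampus, had 174, 185 and 248 normalized CPM in the controls and 182, 214 and 176 in the OE libraries. Here too the OE values lay within the range of the controls. The means were 202 ± 40.0 and 191 ± 20.3 (SD, n = 3 each), with a Log2FC of −0.08 (SE 0.155; edgeR P = 0.601, adjusted P = 0.820, exact permutation P = 0.7). A difference of the size seen in *Zbtb20* would be over 3 standard errors in *Nfic* or *Nfix*, whereas one of the size seen in *Nfia* would be little over 2.

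**Figure D1:**
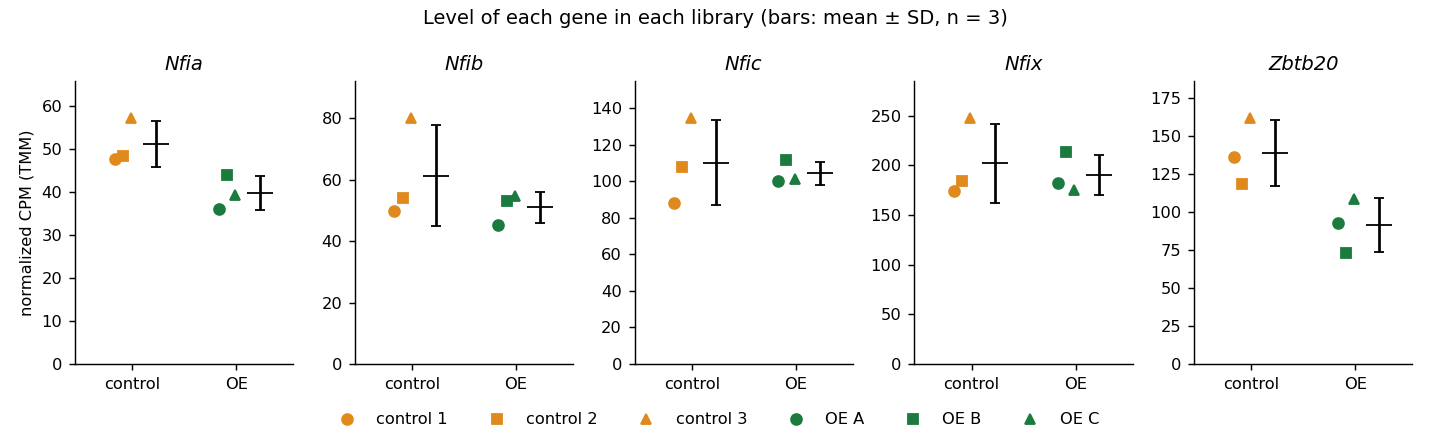
Normalized CPM (vertical axes, each starting at 0) of the 5 genes in the 3 control libraries (orange) and the 3 OE libraries (green), with the mean and SD of each group in black. In *Nfia* and *Zbtb20* each OE library lies below each control, in the other 3 genes the groups overlap, and control 3 (orange triangle) is the highest of the 6 libraries in every panel.

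All 5 log2 fold changes were below 0. By the study's definition of a differentially expressed gene (DEG), a P under 0.05 and a |Log2FC| above 0.32, 2 of the 5 genes count as lower, *Nfia* and *Zbtb20*, which is what they were chosen for and is no test of them. Over all genes tested, 7.15% were DEGs lower in OE mice and 5.1% were DEGs higher. Groups that did not overlap, with OE lower, were found in 2 of the 5 genes and in 12% of all genes tested. These are the 2 genes chosen for being lower, so nothing is read from their counts against the background. *Nfia*, at −0.36, was the member just inside the fold threshold and *Nfib*, at −0.27, the one just outside. No adjusted P of the 3 family members tested was under 0.05, and over 17 alternative settings their unadjusted P ranged from 0.083 to 0.900 for *Nfib*, from 0.050 to 0.955 for *Nfic* and from 0.0788 to 0.929 for *Nfix*, with 0 of 17 under 0.05 in each.

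Control 3 was the highest library for each of the 5 genes. Without it, the Log2FC was −0.46 for *Zbtb20*, −0.26 for *Nfia*, −0.02 for *Nfib*, 0.10 for *Nfic* and 0.10 for *Nfix*. *Nfic* and *Nfix* then had a higher mean in OE mice, with an edgeR adjusted P of 0.729 for *Nfic* and 0.722 for *Nfix*. *Nfia* was then below the fold threshold of 0.32. Leaving out any 1 mouse gave −0.73 to −0.46 for *Zbtb20* and −0.44 to −0.26 for *Nfia*, which was below the fold threshold without OE A as well, at −0.29. The other 2 control libraries alone, with means of 48.0 normalized CPM for *Nfia* and 127 for *Zbtb20*, still lay above every OE library. The part of the choroid plexus, oligodendrocyte, thalamic and hippocampal markers of control 3 in these values was not tested.

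The 5 genes fell into 2 classes of base composition. The longest transcripts of *Nfia*, *Nfib* and *Zbtb20* had GC contents of 42.7%, 43.3% and 43.0%, in the second lowest decile of the genes tested. Those of *Nfic* and *Nfix* had 57.4% and 57.1%, in the second highest. The 3′ UTRs separated in the same way, with 39.6%, 39.2% and 41.6% GC in *Nfia*, *Nfib* and *Zbtb20* against 55.7% and 56.5% in *Nfic* and *Nfix*. The short 5′ UTRs did not, with 65.3%, 60.6% and 43.9% in *Nfia*, *Nfib* and *Zbtb20* against 72.0% and 55.0% in *Nfic* and *Nfix*. The coding part of *Zbtb20*, at 57.7%, was as GC-rich as that of *Nfix*, at 58.8%. Over all genes tested the log2 fold change rose with GC content, from a median of −0.30 in the lowest decile to 0.22 in the highest. In the decile of *Nfia*, *Nfib* and *Zbtb20* the median was −0.21, and 15.1% of genes were DEGs lower in OE mice against 0.642% that were higher. In the decile of *Nfic* and *Nfix* the median was 0.16, with 1.74% lower and 10.5% higher. Measured from the median of its own decile, the Log2FC was −0.38 for *Zbtb20*, −0.15 for *Nfia* and −0.05 for *Nfib*, and −0.24 for *Nfic* and −0.25 for *Nfix*. By that measure *Nfic* and *Nfix* lay further below genes of their own composition than *Nfia* did. Standard errors of 0.121 for *Nfia*, 0.156 for *Nfic* and 0.155 for *Nfix* do not resolve that order.

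**Figure D2:**
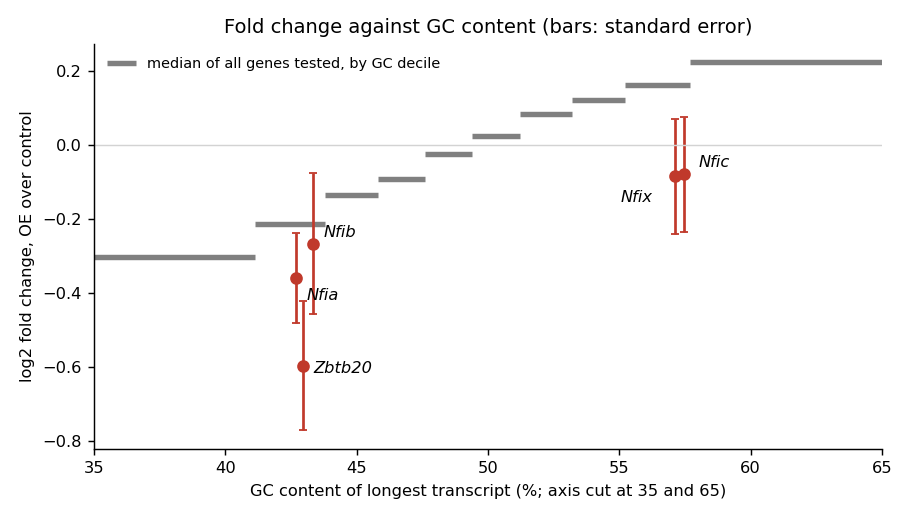
Log2 fold change of OE over control (vertical axis) against GC content in percent of the longest transcript (horizontal axis, from 35 to 65). Grey bars are medians of all genes tested in each GC decile, which climb from −0.30 to 0.22, and red points with standard errors are the 5 genes, of which *Nfia* and *Nfib* lie close to the grey bar of their decile and *Zbtb20*, *Nfic* and *Nfix* below it.

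When a smooth dependence on GC content (longest transcript) was removed from each library by offsets, the Log2FC of *Zbtb20* was −0.41 and that of *Nfia* −0.15. The corrected values of *Nfic* and *Nfix* moved the other way, each to −0.27, and that of *Nfib* was −0.08. None of the 3 genes tested passed in this fit, with an edgeR adjusted P of 0.61 for *Nfic*, 0.588 for *Nfix* and 0.909 for *Nfib*. With the mean GC content over all annotated transcripts the Log2FC was −0.55 for *Zbtb20* and −0.16 for *Nfia*. A correction for transcript length gave −0.39 and −0.21. With the GC correction and without control 3 together, chosen after seeing the data, *Zbtb20* was at −0.30, *Nfia* at −0.08 and *Nfib* at 0.15. *Nfib* had thus changed sign in this setting, and *Nfic* and *Nfix* were each at −0.11. *Zbtb20* and *Nfia* were lower in OE mice in each of the 17 alternatives, with ranges from −0.73 to −0.30 and from −0.44 to −0.08. What lies behind the trend with GC content was not tested.

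**Figure D3:**
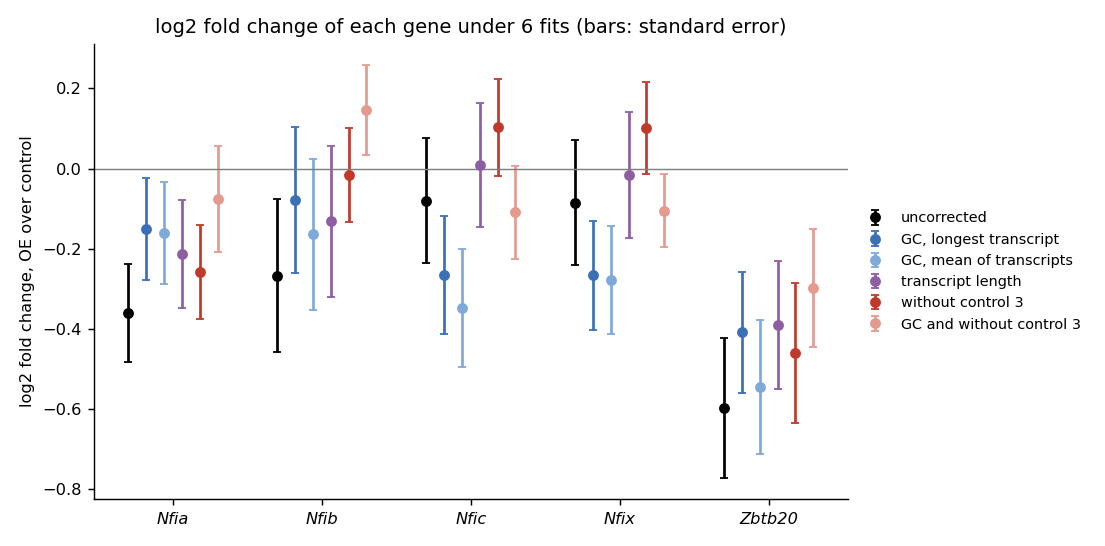
Log2 fold change of OE over control (vertical axis) with its standard error for each gene under 6 fits, namely no correction, 2 GC corrections, a length correction, no control 3, and GC correction without control 3. *Zbtb20* lies between −0.60 and −0.30 in all of them, *Nfia* moves from −0.36 to −0.08, and *Nfib*, *Nfic* and *Nfix* cross 0.

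Levels of different genes were compared per kilobase (kb) of merged exons. *Nfix* was the most abundant of the 5 genes, with 26.7 ± 3.95 normalized CPM per kb (SD over 6 libraries), at the 90.5th percentile of 15567 protein-coding genes. *Nfic* followed with 16.2 ± 2.37, at the 83.7th percentile. *Nfia* with 4.17 ± 0.687, *Nfib* with 3.76 ± 0.819 and *Zbtb20* with 3.75 ± 1.02 were near the middle of all coding genes, at percentiles from 49.1 to 51.9. *Nfix* was above *Nfic* in 6 of 6 libraries, 1.65 times on average, and *Nfic* above *Nfia* in 6 of 6, 3.89 times. In an exact paired permutation test over the 6 libraries each of these comparisons gave P = 0.03125, the smallest that 6 libraries allow, and an adjusted P of 0.0625 over the 4 neighbouring pairs. The pairs were set by the order of mean level in these same libraries, so these values describe only how steadily that order recurred. They cannot separate a difference in level from a bias fixed to a gene, such as one of length or GC content. The order among *Nfia*, *Nfib* and *Zbtb20* was not resolved, with exact permutation P of 0.125 and 0.812. It also depended on the length used, since per kb of the longest transcript *Nfib* was above *Nfia* in 6 of 6 libraries and above *Zbtb20* in 6 of 6.

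Because NFI proteins dimerize with each other, the make-up of the NFI transcript pool was described as well. The 4 NFI genes together had 44.7, 49.4 and 64.6 normalized CPM per kb in controls 1, 2 and 3 and 46.2, 53.5 and 46.4 in OE A, B and C. The groups overlapped. The OE libraries lay above control 1, the lowest control, and below control 3, and OE A and C also lay below control 2. *Nfix* made up 52.0 ± 1.10% of it in control mice and 53.1 ± 1.51% in OE mice (SD, n = 3 each), and *Nfic* 31.4 ± 1.59% and 32.3 ± 0.743%. The share of *Nfia* was 9.80%, 8.98% and 8.13% in controls 1, 2 and 3 and 7.16%, 7.55% and 7.79% in OE A, B and C, without overlap. The share of *Nfib*, at 7.48%, 7.30% and 8.29% in the controls and 6.54%, 6.63% and 7.88% in OE mice, overlapped. All shares use merged exons, and the order of *Nfia* and *Nfib* depends on this. Per kb of the longest transcript *Nfib* averaged 6.73 and *Nfia* 5.36 normalized CPM in control mice, and 5.59 and 4.18 in OE mice. Within the controls the *Nfia* share was lowest in control 3, the library with the highest *Nfia* level, where the other NFI genes were higher still. The share of *Nfia* uses the same contrast as its choice and is given without a test.

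Among mice of the same group the 4 NFI genes varied together and *Zbtb20* did not vary with them. With each library expressed as its log2 deviation from its group mean, Pearson's r over the 6 libraries was between 0.81 and 0.92 for the 6 pairs of NFI genes, the highest for *Nfic* with *Nfix*. For *Zbtb20* it was 0.03 with *Nfia*, 0.48 with *Nfib*, 0.16 with *Nfic* and 0.08 with *Nfix*. OE B shows the contrast most plainly. It had the highest *Nfia*, *Nfic* and *Nfix* of the OE libraries, at 0.15, 0.10 and 0.17 log2 units above the group mean, and the lowest *Zbtb20*, 0.30 below it. Control 3 weighs heavily in these values. Without it, r over 5 libraries was between 0.27 and 0.79 for the pairs of NFI genes and between −0.98 and −0.08 for the pairs with *Zbtb20*. These are descriptions over few libraries that share their RNA, depth and tissue make-up, and no difference between them was tested.

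**Figure D4:**
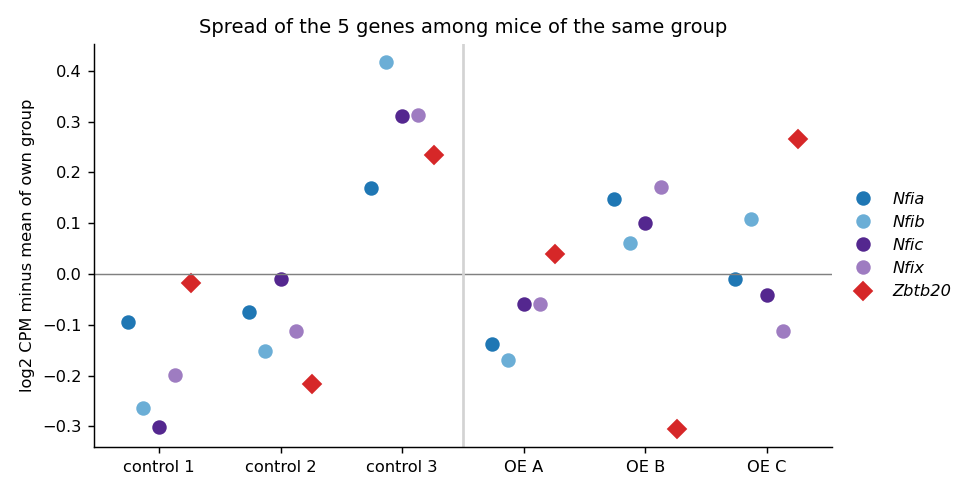
Log2 CPM of each gene minus the mean of its own group (vertical axis) in each library (horizontal axis). The 4 NFI genes (circles) lie on the same side of 0 in every library but OE C, with *Zbtb20* (red diamonds) furthest from them in OE B, at −0.30 against 0.06 to 0.17.

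The protein-coding genes most like each of the 5 were found by Pearson's r of log2 normalized CPM over the 6 libraries, among 10308 genes with a mean log2 CPM above 3. For *Zbtb20* these were *Clpx*, a subunit of a mitochondrial protease (r = 0.997), *Dbt*, a subunit of the mitochondrial branched-chain keto acid dehydrogenase (r = 0.995), and *Mia2*, a protein of export from the endoplasmic reticulum (r = 0.993). *Clpx* had 21.6, 19.9 and 23.4 normalized CPM in the controls and 18.1, 16.3 and 19.7 in the OE libraries, the same order of libraries as *Zbtb20*. For *Nfia* they were *Klhl5*, *Slain1*, a microtubule regulator, and *Gbe1*, the glycogen branching enzyme (r = 0.991, 0.987 and 0.987). For *Nfib* they were *Adra1b*, an adrenergic receptor, *Cdr2* and *Ctxn3* (r = 0.992, 0.991 and 0.991), which are set by control 3, as *Adra1b* shows with 33.1 normalized CPM in control 3 and 10.2 to 15.0 elsewhere. For *Nfic* they included *Spsb1* and *Smpd2*, a sphingomyelinase (r = 0.995 and 0.990). For *Nfix* they were *Fth1*, the ferritin heavy chain, *Naf1*, a ribonucleoprotein assembly factor, and *Fbln1*, an extracellular matrix protein (r = 0.993, 0.992 and 0.991). With 6 points and 10308 candidates, values of r this high were found for each of the 5 genes.

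Genes linked to NFI factors in general knowledge, mostly astrocyte and radial glia genes, went both ways. Of 28 listed, 27 were tested, and 3 passed the DEG thresholds as higher and 2 as lower in OE mice, which is 11.1% and 7.41% against 5.1% and 7.15% of all genes tested. None had an adjusted P under 0.05. The median Log2FC of the list was −0.09, against −0.01 over all genes tested. *Apcdd1*, an inhibitor of Wnt signalling that acts downstream of NFIA in gliogenesis, had 20.9, 22.2 and 25.6 normalized CPM in the controls and 30.4, 35.8 and 36.0 in the OE libraries. It rose by a Log2FC of 0.57 (SE 0.125, edgeR adjusted P = 0.295), with no overlap between the groups. *Hes5*, a target of Notch signalling, had a Log2FC of 0.51 (SE 0.203, edgeR adjusted P = 0.315). *Efnb1*, an ephrin ligand, had 0.40 (SE 0.147, edgeR adjusted P = 0.300). Both were among the genes whose call ended without control 3 and with either GC correction. *Hes1*, another Notch target, was no DEG, with a Log2FC of −0.26 and overlapping groups.

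The lower DEGs of that list were *Sox9* and *Cdh2*. *Sox9*, the transcription factor that induces *Nfia* in the embryonic spinal cord and then acts together with its product, had 99.7, 94.0 and 111 normalized CPM in the controls and 68.1, 85.8 and 72.7 in the OE libraries. It fell by 0.43 on the log2 scale (SE 0.118, edgeR adjusted P = 0.295), and the groups did not overlap. *Cdh2*, or N-cadherin, was no DEG with the mean GC content or the length correction, and without correction fell by 0.33 (SE 0.118, edgeR adjusted P = 0.296). The most abundant list members, *Apoe*, the main lipid carrier secreted by astrocytes, *Slc1a2*, the principal glutamate transporter, and *Sparcl1*, a secreted matrix protein, had Log2FC of 0.26, −0.13 and −0.24 and were no DEGs. *Gfap*, the classical astrocyte filament gene activated with the help of NFI factors, had 205, 189 and 402 normalized CPM in the controls and 297, 258 and 193 in OE mice, with overlapping groups and a Log2FC of −0.09. *Apcdd1* and *Sox9* remained DEGs with both GC corrections, the length correction, DESeq2 and without control 3, at 0.46 to 0.73 and −0.43 to −0.35. Without control 1 or OE A the list held 2 DEGs and without control 3 it held 3.

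Astrocyte markers are given beside these genes because they share members with that list. Of 15 astrocyte markers, 3 (20%) were lower DEGs (*Aqp4*, *Slc4a4* and *Sox9*), against 7.15% of all genes tested, 0 were higher, and none was at 0 in every library. They summed to 6377 to 7429 normalized CPM in control mice and 6252 to 6614 in OE mice, which overlap. Of 10 oligodendrocyte markers 4 (40%) were lower DEGs, with sums of 5282 to 11161 in control mice and 5314 to 5402 in OE mice. Of markers of other cells, 4 of 10 for microglia (40%) and 2 of 10 for endothelium (20%) were higher DEGs against 5.1% of all genes. In either list 0 were lower DEGs. The microglia DEGs were *Trem2*, without overlap of the groups, and *C1qa*, *C1qb* and *Tmem119*, with overlap. The last 3 had 57.4% to 59.5% GC, in the deciles where 10.5% and 17.5% of all genes were higher DEGs. *Trem2* had 51.0% GC, in a decile where 4.08% were. *P2ry12*, with 38.6% GC, had a Log2FC of −0.25 with OE below every control, and *Cx3cr1* had −0.001. Microglia markers summed to 344 to 416 in control mice and 363 to 510 in OE mice, and endothelial markers to 97.8 to 119 and 115 to 164. The part of these lists in the levels of the 5 genes was not tested.

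Among proteins known to work with or beside NFI factors, 16 of 16 were tested, 3 (18.8%) were lower DEGs against 7.15% of all genes tested, 0 were higher against 5.1%, and none had an adjusted P under 0.05. The median Log2FC was −0.15, against −0.01 over all genes. *Nfatc3*, of the calcineurin-regulated NFAT family, had 18.1, 18.1 and 18.8 normalized CPM in the controls and 13.8, 12.1 and 13.6 in the OE libraries. The groups were well apart, with a decrease of 0.48 on the log2 scale (Log2FC −0.48, SE 0.114, edgeR adjusted P = 0.295). *Creb1*, the cAMP response factor, fell by 0.53 (SE 0.145, edgeR adjusted P = 0.295), but with the GC correction its Log2FC was −0.23 and it was no longer a DEG. Its transcript has a GC content of 39.6%. With the mean GC content over transcripts *Nfatc3*, at −0.28, was below the fold threshold too. The third is *Sox9*, described above. The most abundant co-regulators were *Smarca2*, a chromatin remodelling ATPase, *Sox2*, a stem cell and astrocyte factor, and *Smarca4*, the ATPase paralogous to *Smarca2*. Their Log2FC of −0.22, −0.20 and 0.02 were all below the fold threshold, and *Smarca2* and *Sox2* had groups that did not overlap. In the list, groups did not overlap in 7 of 16 genes with OE lower and in 2 with OE higher. Over all 21844 genes tested these were 2620 (12%) and 2280.

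The BTB zinc finger family, of which *Zbtb20* is a member, was listed with 44 other genes, all of which were tested. The Log2FC went both ways, with a median of 0.0001 and 22 of 44 below 0. Its ends were −0.78 in *Zbtb22* (SE 2.30) and 1.37 in *Zbtb9* (SE 1.36). *Zbtb9* had 19.1 normalized CPM in OE C and 0.781 to 6.49 elsewhere. The family held 1 higher and 3 lower DEGs (2.27% and 6.82%, against 5.1% and 7.15% of all genes), none with an adjusted P under 0.05. *Zbtb10* had 11.3, 12.95 and 10.4 normalized CPM in the controls and 6.60, 5.73 and 8.73 in the OE libraries, without overlap, and fell by 0.72 (SE 0.195, edgeR adjusted P = 0.295). *Zbtb16*, also known as PLZF, had 9.54, 10.3 and 11.8 in the controls and 16.3, 14.9 and 13.9 in the OE libraries. It rose by a Log2FC of 0.51 (SE 0.138, edgeR adjusted P = 0.295). Both remained DEGs with the GC corrections, at −0.58 and −0.55 for *Zbtb10* and at 0.40 and 0.37 for *Zbtb16*. *Zbtb41* and *Zbtb37* had Log2FC of −0.49 and −0.45 (edgeR adjusted P = 0.305 and 0.312), overlapping groups, and −0.16 and −0.21 after the GC correction, where neither was a DEG. The most abundant members, *Zbtb4*, *Zbtb7a* and *Zbtb18*, had 0.14, −0.003 and −0.10. *Zbtb18*, a transcriptional repressor that acts in cortical neuron development, had 167 normalized CPM in control 3 and 62.2 to 116 elsewhere. The family held 2 DEGs without control 2 or without OE B and 7 without OE C. *Zbtb22*, singled out after its values were seen, was listed at 0 in control 3, OE B and OE C and at 36.5 to 44.2 normalized CPM in the other 3 libraries, so its level cannot be compared.

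**Figure D5:**
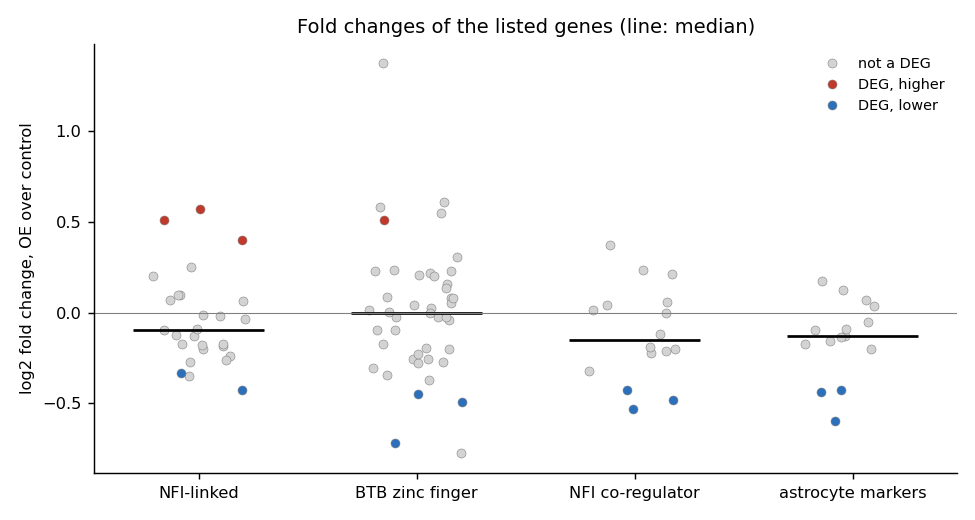
Log2 fold change of OE over control (vertical axis) for each tested gene of the NFI-linked, BTB zinc finger and NFI co-regulator lists and of the astrocyte markers (columns), with higher DEGs in red, lower DEGs in blue, other genes in grey and the median as a line. The medians are −0.09, 0.0001, −0.15 and −0.13, and only the first and second columns hold red points, 3 and 1.

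Genes that overlap the 5 by coordinates were checked, since the study does not state that the counting used strand. Of 17 such genes, 6 were tested and none was a DEG. *BC002163*, a processed pseudogene in an intron of *Zbtb20* on the same strand (chr16:42955631-42955949), had 3470 to 5532 counts, and it shares no exon base with *Zbtb20*. Its Log2FC was 0.17, opposite in sign to that of *Zbtb20*. *E130114P18Rik*, on the strand opposite to *Nfia*, had 166 to 272 counts, shares 4 exon bases with it and had a Log2FC of −0.01. *Lyl1*, opposite to *Nfix*, had 77 to 260 counts against at least 7071 of *Nfix*, and shares 4 exon bases. *G430095P16Rik* shares 137 exon bases with *Nfix* and had at most 39 counts in a library. *Gm11266*, opposite to *Nfib*, had 124 to 184 counts, and *Gm19522*, opposite to *Zbtb20*, had 72 to 196, both with no shared exon base. The other 11 genes had at most 6 counts in a library.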

How the data were processed

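RNA-seq counts of brain tissue from 3 control and 3 *AP1AR-DT* OE mice were used. Per the study's methods, the authors mapped reads to GRCm38 with Bowtie2, which does not split reads at introns, ran StringTie with GENCODE genes and deposited unnormalized whole-number counts per gene derived from coverage. The submitters' processing notes instead list mm9, TopHat2 2.0.4, SAMtools, HTSeq, Cuffdiff and edgeR 2.6.12, and which applies is not settled here. The gene starts and ends listed in the table equal those of GENCODE vM21 on GRCm38 for 1546 of 52133 genes and the span lengths for 51554, so the table's coordinates were not used, and lengths, GC contents and levels per kb rest on GENCODE vM21. The deposited mean normalized count (a signal) and the 5 columns of the authors' DESeq2 comparison, which hold the log2 fold change, its standard error, a Wald score and both raw and adjusted P-values, were not used.

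Genes passing filterByExpr (21844 of 52390) were tested with edgeR 4.0.16 in R 4.3.3, with TMM factors, the two-sided quasi-likelihood F-test and Benjamini-Hochberg adjustment. Log2FC denotes the fitted log2 fold change of OE over control. Alternatives were DESeq2 1.42.0, its size factors, library totals, limma-voom (limma 3.58.1), no filter, at least 10 counts in every mouse, no mitochondrial genes, GC and length corrections (natural splines with 5 degrees of freedom as offsets), and leaving out each mouse. Promoters are from RefSeq and other annotation from GENCODE vM21. Models were tested on simulated data. Totals ranged from 42061721 to 54668294 counts. No libraries of a group agreed within sampling noise, with a chi-square per gene of at least 45.1. That replicates are separate mice comes from the labels.

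The 5 genes, the gene lists and the tests were chosen with earlier results of these data known. The genes named beside the 5 are the 3 most alike by correlation, the DEGs and the 3 most abundant genes of the 3 lists, and overlapping genes. One of the genes most alike is not reported here. *Gfap*, *Zbtb9*, *Zbtb22* and the astrocyte and microglia markers named were chosen after their values were seen, as were *Hes1*, *Slc17a7*, *Neurod6* and *Camk2a*.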

Additional observations from a re-analysis of the deposited data

How the results depend on the processing

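With the GC content of the longest transcript the DEGs of all genes numbered 1569 instead of 2675, those of the NFI-linked list 3 instead of 5 and those of the BTB zinc finger list 2 instead of 4, and *Nfia* was at −0.15. With the mean GC content these were 1556, 2 and 2, with 1 instead of 3 DEGs of the NFI co-regulator list. *Nfia* was then at −0.16 and *Nfic* at −0.35. With the length correction the NFI-linked list had 3 DEGs, *Nfia* was at −0.21 and *Nfic* at 0.0091 (from −0.08). With the GC correction and no control 3, chosen after seeing the data, there were 1532 DEGs, 3 of them NFI-linked, with *Nfia* at −0.075, *Nfib* at 0.15 (from −0.27) and *Zbtb20* at −0.30. The GC and length corrections change only the offsets, and the cause of the trends was not tested. Leaving out 1 mouse at a time gave 1430 (without OE B) to 3508 DEGs of all genes, with 1620 without OE A, 2 to 7 of the NFI-linked list, 2 to 7 of the BTB zinc finger list and 3 to 4 of the co-regulator list. The Log2FC ranged from −0.44 to −0.26 for *Nfia*, from −0.39 to −0.02 for *Nfib*, from −0.22 to 0.10 for *Nfic*, from −0.18 to 0.10 for *Nfix* and from −0.73 to −0.46 for *Zbtb20*. Lower genes were 58.4% of the DEGs with all mice and 47.8% without control 3. DESeq2, its size factors, library totals, limma-voom, no filter, the count minimum and the removal of mitochondrial genes changed neither the direction of any of the 5 genes nor a list count by over 1.5 times. No paired analysis was possible because the groups share only 1 replicate number and the OE columns carry no mouse number. With 3 mice per group and a common biological coefficient of variation of 0.313, the standard errors above set what can be seen, and sequencing depth does not limit genes with at least 1912 counts in each library.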
